A study of Mus musculus with 6 samples.

Results

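The 47 genes described here encode the core proteins of the Polycomb repressive complexes, of the trithorax (MLL) group and of the SWI/SNF chromatin remodellers, with their partner enzymes Dot1l, Chd4, Crebbp and Ep300. They were chosen by symbol from a list of such genes, without a rule on their values but with earlier results of these data known. All 47 were found among the 47937 genes of the deposited table, each under 1 gene ID. The RNA came from haematopoietic stem cells (HSCs) of bone marrow, sorted into a fraction with the surface receptor CD93 (CD93pos, 3 libraries) and a fraction without it (CD93neg, 3 libraries). All mice were wild type C57BL/6 animals, 8 weeks old and male, with no treatment. Every cell, in both fractions, was lineage-depleted with magnetic beads and then gated as Kit and Sca-1 positive, CD34, Flt3 and CD48 negative and Slam1 positive. Marrow of femora and tibiae was pooled, and the labels give 3 biological replicates without tying a library to an animal, so p-values measure the spread between these 6 libraries. The comparison asks whether these chromatin regulators differ between the CD93pos and CD93neg HSC fractions.

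Polycomb repressive complex PRC2 places a repressive methyl mark on histone tails through its catalytic subunit Ezh2 or Ezh1, and PRC1 adds ubiquitin to another histone and compacts the chromatin. Trithorax proteins of the MLL family counter them by methylating histones at active genes, while SWI/SNF complexes use ATP to move or eject nucleosomes. In HSCs these regulators are known for keeping self-renewal genes on and lineage and cell cycle inhibitor genes off, and several are mutated in blood cancers.

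Ezh2 and Ezh1, and Smarca4 and Smarca2, are pairs of alternative catalytic subunits whose shares of the pair's reads are compared between the fractions further on. The sequence just before a RefSeq start of each of these 4 genes is therefore shown. RefSeq promoters (GRCm38.p6) were matched for 42 of the 47 genes, 53 promoters in all. The 250 bases before the start are printed 5′ to 3′ on the gene's own strand, with matches to the searched motifs in capitals. Ezh2 lies at chr6:47595031-47595280 (minus strand), Ezh1 at chr11:101226464-101226713 (minus), Smarca4 at chr9:21615919-21616168 (plus) and Smarca2 at chr19:26604910-26605159 (plus). In the GENCODE M21 annotation Ezh2 begins further upstream, at 47595341, and Smarca2 at 26605050. The Ezh2 stretch therefore lies inside the GENCODE gene, as does part of the Smarca2 stretch, and positions hold for the RefSeq start only.
Ezh2: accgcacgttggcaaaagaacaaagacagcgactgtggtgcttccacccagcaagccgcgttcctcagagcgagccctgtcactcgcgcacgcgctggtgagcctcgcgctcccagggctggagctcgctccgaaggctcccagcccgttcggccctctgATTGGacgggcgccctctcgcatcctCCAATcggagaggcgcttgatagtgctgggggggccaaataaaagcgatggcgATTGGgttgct
Ezh1: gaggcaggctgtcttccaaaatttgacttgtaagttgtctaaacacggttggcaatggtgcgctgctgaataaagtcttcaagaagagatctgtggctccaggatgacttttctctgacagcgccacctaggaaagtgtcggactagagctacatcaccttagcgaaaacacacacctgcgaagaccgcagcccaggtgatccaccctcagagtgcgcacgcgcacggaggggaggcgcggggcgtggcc
Smarca4: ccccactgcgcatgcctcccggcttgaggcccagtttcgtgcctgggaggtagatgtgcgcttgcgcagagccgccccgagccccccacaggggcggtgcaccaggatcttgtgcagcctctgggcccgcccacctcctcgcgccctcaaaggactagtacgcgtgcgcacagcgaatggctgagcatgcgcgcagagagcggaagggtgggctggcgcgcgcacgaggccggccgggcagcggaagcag
Smarca2: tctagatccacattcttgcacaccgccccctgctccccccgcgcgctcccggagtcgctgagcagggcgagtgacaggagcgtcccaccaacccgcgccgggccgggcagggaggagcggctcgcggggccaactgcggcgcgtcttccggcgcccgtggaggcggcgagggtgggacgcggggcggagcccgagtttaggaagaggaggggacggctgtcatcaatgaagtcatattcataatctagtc
The capitals in Ezh2 are 3 CCAAT words, on either strand, that begin at positions -90, -64 and -11 counted back from the start; the other 3 promoters hold none of the words searched. The CCAAT word was in 16 of the 53 promoters (30.2%) and in 33.8% of all 32851 RefSeq promoters of the same length. The CHR word TTTGAA was in 5 of 53 (9.43%) against 16.0% of all. An E2F word (TTTCCCGC, TTTCGCGC, TTTGCCGC or TTTGGCGC, either strand) was in 3 of 53 (5.66%), those of Arid1a, Smarcd1 and Suz12, against 1.86% of all. The 53 promoters were rich in CG dinucleotides, with a median of 23 against 6 over all promoters, and in G and C, with a median of 67.2% against 52.4%. The words overlap no other searched word in these 4 sequences, and a match is a description of the letters only.

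The libraries held 2832653 to 9509304 assigned reads, and the CD93neg libraries were the 3 shallowest. CD93neg replicate 1 stood apart: it had reads in 4429 genes against 10752 to 17334 in the other 5, and 71.0% of the 11805 tested genes had no read there. Of 11 HSC markers, all were read in the other 5 libraries and 4 in CD93neg replicate 1; their summed level was 1616 to 2298 CPM (reads per 1000000 assigned reads) in CD93pos and 2373 to 3893 in CD93neg. Of 13 neutrophil markers, those read summed to 207 to 588 CPM in CD93pos and to 0, 13842 and 9047 in CD93neg replicates 1 to 3, with Ly6g at 0 in every CD93pos library. The limma log2 fold change, CD93pos minus CD93neg, was negative for 10 of the 13 and positive for 3. Of 10 B lineage markers, the sums were 73.7 to 100 CPM in CD93pos and 0.353, 11111 and 34016 in CD93neg, with Cd79a, Ms4a1, Pax5, Ebf1 and Igll1 at 0 in CD93pos. Of the 7 B lineage markers tested, 6 had a negative fold change and 1 a positive. Genes of G2 and mitosis (18) summed to 2655 to 3248 CPM in CD93pos and to 2718, 236 and 432 in CD93neg, where Ccna2, Plk1, Aurka, Nuf2, Ndc80 and Kif20a had no read. The 2718 came from 7 of the 18 genes. S phase genes (18) summed to 5245 to 6841 CPM in CD93pos and to 1365 to 4281 in CD93neg. The mast cell, basophil and eosinophil list (9 genes) summed to 636 to 1405 CPM in CD93pos and 0.353 to 354 in CD93neg, with Prss34, Ms4a2, Fcer1a, Hdc, Mcpt8 and Epx unread in CD93neg. Of the 8 genes of this list tested, 7 had a positive fold change and 1 a negative. Megakaryocyte markers (6) summed to 649 to 1355 CPM against 298 to 409, and erythroid markers (8) to 313 to 636 against 15.0 to 228. Dendritic cell markers (7) were at 267 to 386 CPM in CD93pos and 2773, 535 and 717 in CD93neg. T and NK cell markers (8) were at 203 to 425 CPM against 35.3 to 247, and monocyte and macrophage markers (7) at 63.4 to 172 CPM against 0, 27.1 and 864. The part of these other cells, of cycling cells and of depth in the results on the chromatin genes was not tested.

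No chromatin gene passed the test between the fractions. With limma on log2(normalized count + 1), 0 of the 47 had an adjusted p under 0.05, as did 0% of the 11805 genes tested; all fold changes are on this scale, CD93pos minus CD93neg. Counts at an unadjusted limma p under 0.05 were 3 higher in CD93pos (Scml2, Rbbp7 and Pcgf5, 6.38% of 47, against 11.8% of all genes) and 0 lower (0.381% of all). edgeR on the recovered reads called 0 of 47 and 0% of all genes, with 2 of the 47 higher at an unadjusted p under 0.05 (4.26%, against 9.04% of all genes) and 0 lower (1.51% of all). DESeq2 called Scml2 alone (5.97% of all genes, both directions). The authors' deposited table called 1 of the 43 with an adjusted p higher, again Scml2 (2.33%, against 5.58% of all genes), and 0 lower (0.389%). The fold change was positive for 34 of 47 (79.9% of all genes), with a median of 2.26 against 2.36 over all genes. Under quantile normalization, which moves the median of all genes to 0.02, the positive share was 25 of 47 and 50.5% of all genes. The genes as a group therefore stood near the background of the table, and no direction is read from their positive folds. Calls depended on single libraries: limma called Scml2, Scmh1, Smarcd1, Pcgf5, Men1, Rbbp7, Smarcc1 and Phc3 without CD93neg replicate 3 (8 of 47, 17.0%, against 15.9% of all genes) and Scml2 and Cbx8 without CD93pos replicate 2 (2 of 47, against 6.56%). DESeq2 called 4 without CD93neg replicate 1 (Scml2, Ezh2, Ash2l and Jarid2, against 10.3% of all genes), Phc2 and Dot1l without replicate 2 (against 9.04%) and 9 without replicate 3 (19.1% of the 47 and 19.1% of all genes). Fold changes rested on single libraries too: of the 31 genes given with values, 22 had a fold that moved by over 1.5 times or turned without CD93neg replicate 1, 10 without CD93neg replicate 2, 12 without CD93neg replicate 3, and 3 to 5 without each CD93pos library. In bulk RNA, fewer cells of a type and less RNA per cell cannot be told apart.

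**Figure D1:**
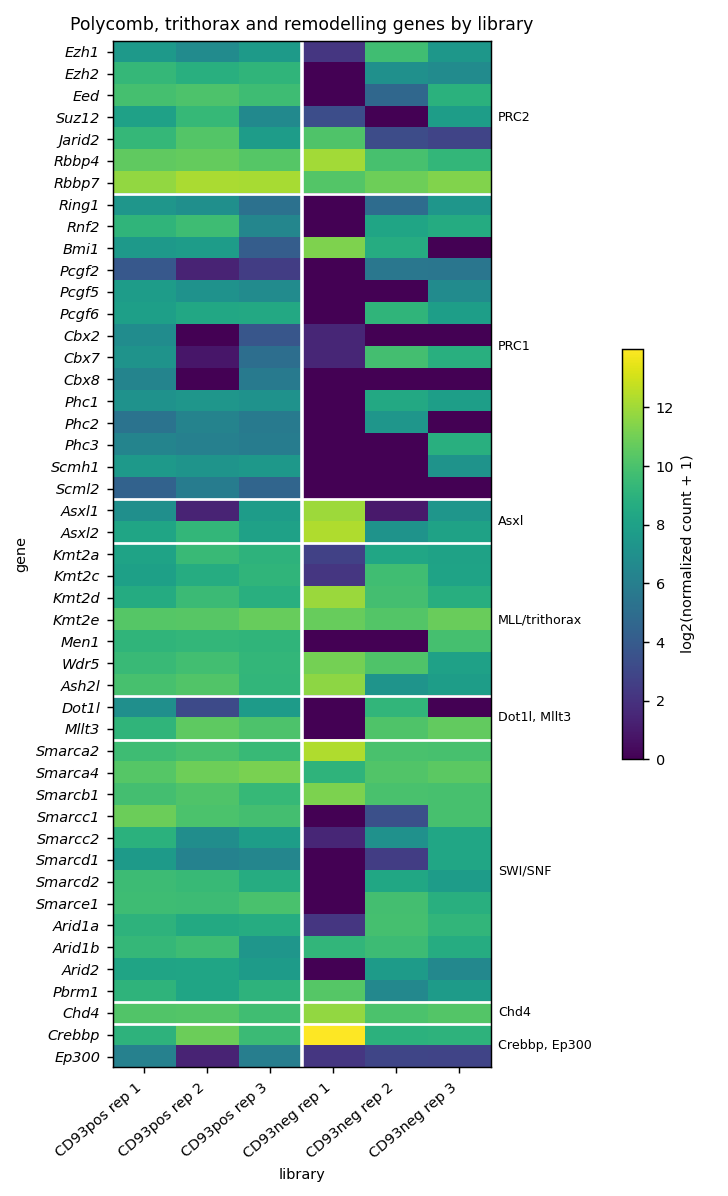
Level of each of the 47 genes in each of the 6 libraries, as log2(normalized count + 1), genes ordered by complex. In CD93neg replicate 1, 21 of the 47 genes had no read, and the 26 that did ran from 1 or 2 reads, as in Cbx7 and Ezh1, to 9016 in Crebbp.

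Values did not overlap between the fractions for 8 of the 47 genes, all higher in CD93pos: Ezh2, Eed, Rbbp7, Pcgf5, Scmh1, Scml2, Smarcd2 and Arid2 (17.0%, against 18.3% of all genes). None lay wholly lower, against 1.92% of all genes. Leaving out CD93neg replicate 1, 12 were wholly higher (Jarid2, Rbbp4, Ash2l and Pbrm1 added; 21.8% of all genes) and 4 wholly lower (Pcgf2, Cbx7, Phc1 and Arid1a; 13.8% of all genes). The 47 genes were read almost throughout CD93pos: 45 in all 3 libraries and the other 2, Cbx2 and Cbx8, in 2 libraries. In CD93neg 23 were read in all 3 libraries, 15 in 2, 7 in 1, and Cbx8 and Scml2 in none. Without a read were 21 of 47 in CD93neg replicate 1 (44.7%, against 71.0% of tested genes), 8 in replicate 2 (17.0% against 26.4%) and 6 in replicate 3 (12.8% against 16.0%).

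The genes varied little within CD93pos and widely within CD93neg, as all tested genes did. The median spread in CD93neg was lower without replicate 1, though single genes still differed widely between replicates 2 and 3. The median SD over the 3 CD93pos libraries was 0.50 on the log2 scale, against 0.63 over all tested genes. In CD93neg it was 3.89 against 3.95, and between CD93neg replicates 2 and 3 alone it was 0.64 against 0.98. An SD of 2 libraries is not like that of 3, and a gene unread in both has an SD of 0. Over all tested genes, CD93neg replicates 2 and 3 correlated at 0.46 on the log2 scale. The CD93pos libraries correlated with each other at 0.70 to 0.88, and with these 2 at 0.43 to 0.57. Men1, the MLL partner menin, was steadiest in CD93pos with an SD of 0.074, and most variable between CD93neg replicates 2 and 3 with 6.98. Reads were concentrated in a few genes in CD93neg replicate 1, where Crebbp, Smarca2 and Asxl2 held 45.2% of the reads of the 47 genes, against 20.5% to 34.6% for the top 3 genes of the other libraries.

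With all 6 libraries kept, PRC2 was the 1 complex of those summed whose CD93pos libraries all lay above its CD93neg libraries in CPM. This also held with size factors, TMM scaling and quantile normalization. Among all tested genes, 18.3% were wholly higher in CD93pos with size factors, so this separation alone does not mark PRC2 out. Its 7 genes together gave 1755, 2166 and 1753 CPM in CD93pos and 1306, 890 and 904 CPM in CD93neg. The means were 1891 ± 238 and 1033 ± 236 (SD, n = 3), a ratio of 1.83, or 2.11 against CD93neg replicates 2 and 3. All 7 had a positive fold change, with a median of 3.67; under quantile normalization 6 of 7 were positive, with a median of 1.79 where all genes had 0.02. The histone chaperone Rbbp7 supplied much of the sum; without it and its relative Rbbp4, the other 5 genes, a subset taken after the values were seen, gave 613, 769 and 425 CPM in CD93pos and 224, 228 and 211 CPM in CD93neg. The largest part of this 5-gene sum came from a different gene in each CD93neg library. Jarid2 gave 222 CPM in replicate 1, where Ezh2 and Eed had no read. Ezh1 gave 191 CPM in replicate 2, where Suz12 had no read, and Eed gave the largest part in replicate 3. The closeness of the CD93neg sums therefore does not show a steady level of the single genes. With 3 against 3 libraries an exact test of a single value cannot give a p below 0.1.

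Ezh2, the methyltransferase most active in dividing cells, had 647, 448 and 575 normalized counts in CD93pos replicates 1 to 3 and 0, 127 and 108 in CD93neg. The lowest CD93pos library was above the highest CD93neg library. The fold change was 4.52 (SE 2.41), and limma's adjusted p was 0.474; without CD93neg replicate 1 the fold was 2.22.  Its alternative, Ezh1, known as the form of non-dividing cells, had 183, 109 and 196 normalized counts in CD93pos and 3.63, 839 and 169 in CD93neg. Here the fractions overlapped, with CD93neg replicate 2 far above the rest, and the fold change was 0.86 with an SE of 2.37 (limma adjusted p = 0.850), turning to -1.26 without CD93neg replicate 1 and to -1.87 under quantile normalization.

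Set against each other, the alternative enzymes gave ratios that do not depend on library scaling. Ezh2 took 78.0%, 80.5% and 74.6% of the reads of Ezh2 plus Ezh1 in CD93pos, of 1815, 703 and 1253 reads. In CD93neg it took 13.2% of 1016 reads in replicate 2 (exact 95% interval 11.2% to 15.4%) and 39.0% of 177 in replicate 3 (31.8% to 46.6%). CD93neg replicate 1 had 0 of 2 reads, an interval up to 84.2%, and so did not bear on the share. The mean CD93pos share was 51.6 percentage points above that of CD93neg replicates 2 and 3. Per length, as RPKM (CPM per kilobase of exon), Ezh2 was 3.94, 4.60 and 3.28 times Ezh1 in CD93pos and 0.17 and 0.71 times in CD93neg replicates 2 and 3. Ezh2 was thus the more abundant form in each CD93pos library, and Ezh1 in the CD93neg libraries with reads enough to tell. No 50-base run is shared between the transcripts of the pair. The pairs were compared with earlier results of these libraries known, so their shares are given without a test. Against CD93neg replicates 2 and 3, only the shares of Ezh2, Smarca4 and Smarcc1 lay wholly higher in CD93pos. The others, of Rbbp7 (with Rbbp4), Bmi1 (Pcgf2), Rnf2 (Ring1), Kmt2d (Kmt2c), Smarcd2 (Smarcd1), Arid1a (Arid1b), Asxl2 (Asxl1), Cbx7 and Crebbp, overlapped. Mean differences in percentage points were 45.1 for Bmi1, 14.9 for Smarcd2, 0.66 for Kmt2d and 0.42 for Rbbp7. They were -2.32 for Rnf2, -5.64 for Asxl2 and -7.71 for Arid1a.

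**Figure D2:**
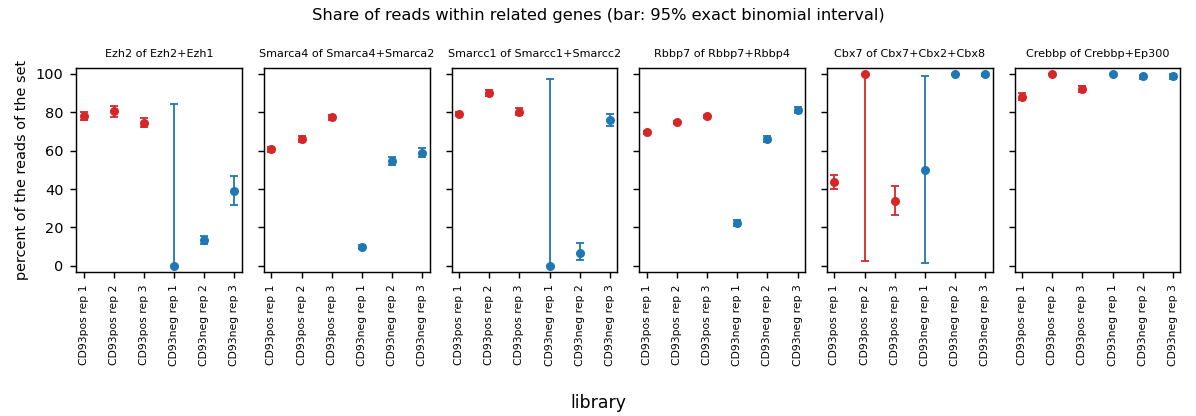
Share of reads taken by the first gene of each set of related subunits shown, in percent, by library, with exact 95% intervals for counting error. Ezh2 of Ezh2 plus Ezh1 lies at 74.6% to 80.5% in CD93pos and at 13.2% and 39.0% in CD93neg replicates 2 and 3; the wide intervals are libraries with 1 or 2 reads.

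The other PRC2 subunits differed in how they were read in CD93neg. Eed, which binds the methyl mark and stimulates the enzyme, had 939, 1090 and 790 normalized counts in CD93pos and 0, 24.7 and 485 in CD93neg. The fractions did not overlap, and the fold change was 5.33 with an SE of 2.52 (limma adjusted p = 0.445; 3.06 without CD93neg replicate 1). Suz12, the scaffold of the complex, had 260, 677 and 99.1 normalized counts in CD93pos and 9.08, 0 and 222 in CD93neg, and overlapped. Its fold change was 4.31 with an SE of 2.36 (limma adjusted p = 0.486; 2.46 without CD93neg replicate 2). Rbbp7 (chrX:162760402-162779092, plus strand), a histone-binding chaperone of several complexes, was the most abundant of the 47 per length, at a mean of 329 RPKM in CD93pos. It had 3448, 4788 and 4559 normalized counts in CD93pos and 1229, 1918 and 2641 in CD93neg. The 6 libraries held 677 to 7543 of its reads, and the fractions did not overlap. The fold change was 1.20 with an SE of 0.36 (limma adjusted p = 0.157), below the median fold of all genes, and 11.2% of its 50-base runs occur in other transcripts, such as those of Txlng and Gm6382. The part of such shared runs in its count was not tested. Rbbp4 and the recruiting subunit Jarid2 overlapped between the fractions.

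The PRC1 sum was not higher in CD93pos. Its 14 genes gave 501, 464 and 262 CPM in CD93pos and 495, 627 and 472 CPM in CD93neg, with overlapping ranges and means of 409 ± 129 and 531 ± 83.3 (SD, n = 3). With size factors the CD93pos sums lay wholly below CD93neg, and with TMM scaling and quantile normalization they overlapped. Fold changes were positive for 11 genes and negative for 3, with a median of 2.92, opposite in sign to the difference of the sums; under quantile normalization 6 were positive and 8 negative, with a median of -0.20. The ubiquitin ligase subunits Ring1 and Rnf2 both overlapped between the fractions. Ring1 had 163, 124 and 35.7 normalized counts in CD93pos and 0, 29.5 and 163 in CD93neg, a fold change of 2.41 with an SE of 2.20 (limma adjusted p = 0.624; 0.37 without CD93neg replicate 1 and -0.44 under quantile normalization). Rnf2 had 578, 801 and 86.2 in CD93pos and 0, 294 and 391 in CD93neg, a fold change of 2.82 with an SE of 2.74 (limma adjusted p = 0.630). The Rnf2 fold rested on CD93neg replicate 1, without which it was 0.015.

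The Pcgf subunits define the PRC1 variants. Bmi1, needed for HSC self-renewal, had 181, 211 and 16.6 normalized counts in CD93pos and 2541, 400 and 0 in CD93neg. Its levels spread more within each fraction than between them, with a fold change of -0.19 and an SE of 3.10 (limma adjusted p = 0.975) whose sign turned in several alternatives, to 2.14 without CD93neg replicate 1. Pcgf5, of a non-canonical variant, had 209, 138 and 108 normalized counts in CD93pos and 0, 0 and 106 in CD93neg. The groups just failed to touch, at 108 against 106, and the fold change was 4.95 with an SE of 2.11 (limma adjusted p = 0.402). Pcgf2 was the least abundant of the 47 per length, at a mean of 0.43 RPKM in CD93pos, and Pcgf6 overlapped.

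The chromodomain subunits, which read the PRC2 mark, varied widely between libraries. Cbx7, the form linked to HSC self-renewal, had 146, 0.79 and 32.6 normalized counts in CD93pos and 1.82, 899 and 463 in CD93neg. Its fold change of -2.35, with an SE of 2.77 (limma adjusted p = 0.667), was -4.96 without CD93neg replicate 1 and -0.58 without CD93pos replicate 2. Cbx8 had 78.6, 0 and 51.7 normalized counts in CD93pos and no read in any CD93neg library. With 3 reads for the whole CD93neg group as the floor, its pooled CD93pos reads per depth were at least 39.7-fold higher. This bound was 22.2-fold without CD93neg replicate 2 and 22.6-fold without CD93pos replicate 1. It holds counting error only, and CD93pos replicate 2 had no Cbx8 read either. The limma fold change of Cbx8 was 4.01 (SE 1.91, adjusted p = 0.447), and 0.63 under quantile normalization. Cbx2 had 111, 0 and 12.3 normalized counts in CD93pos and 1.82, 0 and 0 in CD93neg, a fold change of 3.02 with an SE of 1.92 (limma adjusted p = 0.547; 1.37 without CD93pos replicate 1, 4.77 without CD93pos replicate 2 and -0.80 under quantile normalization). Of the reads of these 3 genes, Cbx7 held 43.5% of 735 and 33.8% of 157 in CD93pos replicates 1 and 3, and 100% of 945 and of 296 in CD93neg replicates 2 and 3. The other 2 libraries had 1 and 2 such reads. So in the 4 libraries with enough reads, Cbx2 and Cbx8 were read beside Cbx7 in CD93pos only.

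Of the Phc and Scm subunits, which polymerise PRC1, Scml2 came closest to passing. Scml2 (chrX:161117193-161258213, plus strand) had 20.1, 57.8 and 22.8 normalized counts in CD93pos, from 44, 73 and 37 reads, and no read in CD93neg. It was the 1 gene of the 47 read in every CD93pos library and no CD93neg library, against 4.60% of all genes. With the same floor, on counting error only, its pooled reads per depth were at least 23.9-fold higher, or 13.3-fold without CD93neg replicate 2. The fold change was 4.95 with an SE of 1.30 (limma adjusted p = 0.105). It was 0.19 under quantile normalization and 2.02 with a pseudocount of 10. In the authors' deposited table the log2 fold change was 7.03 and the DESeq2 adjusted p 0.0479. Scmh1 had 180, 150 and 178 normalized counts in CD93pos and 0, 0 and 145 in CD93neg, a fold change of 5.01 with an SE of 2.21 (limma adjusted p = 0.421). Phc2 had 38.9, 76.1 and 54.2 in CD93pos and 0, 166 and 0 in CD93neg, so its highest library was CD93neg although its fold change was 3.33 with an SE of 2.17 (limma adjusted p = 0.555; 2.10 without CD93neg replicate 1 and -0.21 under quantile normalization). Phc3 was alike, with 78.2, 67.4 and 57.8 in CD93pos and 0, 0 and 452 in CD93neg and a fold change of 3.15 with an SE of 2.47 (limma adjusted p = 0.610; 1.68 without CD93neg replicate 1 and -0.24 under quantile normalization). Phc1 overlapped. Asxl1 and Asxl2, scaffolds of the complex that removes the PRC1 ubiquitin mark, overlapped too; their reads summed to 98.4 to 136 CPM in CD93pos and to 1761, 33.4 and 92.2 CPM in CD93neg.

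**Figure D3:**
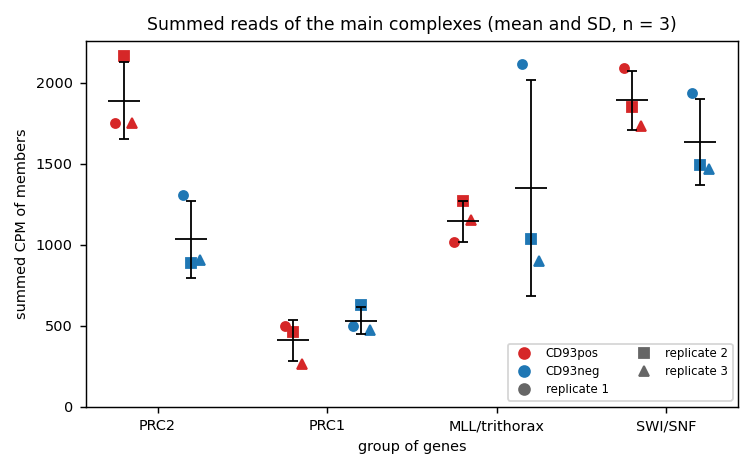
Summed reads of each complex in CPM, 1 point per library, with the group mean and SD. The PRC2 points of CD93pos (1753 to 2166 CPM) all lie above those of CD93neg (890 to 1306 CPM), also under the other scalings. Of single tested genes, 18.3% lie wholly higher in CD93pos with size factors. The PRC1 points overlap here and lie wholly lower in CD93pos with size factors.

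The MLL group gave no separation between the fractions. Its 7 genes summed to 1016, 1269 and 1152 CPM in CD93pos and to 2117, 1037 and 899 CPM in CD93neg, and folds were positive for 4 and negative for 3 (5 and 2 under quantile normalization). Kmt2a, the MLL enzyme that drives leukaemia when translocated, had 274, 719 and 534 normalized counts in CD93pos and 5.45, 307 and 267 in CD93neg. Its fold change was 2.54 with an SE of 2.11 (limma adjusted p = 0.619; 0.72 without CD93neg replicate 1). Kmt2c, an enhancer methyltransferase, had 243, 410 and 563 in CD93pos and 3.63, 848 and 281 in CD93neg, a fold change of 1.89 with an SE of 2.31 (limma adjusted p = 0.678; -0.35 without CD93neg replicate 1 and -0.58 under quantile normalization). Its relative Kmt2d had 390, 747 and 455 in CD93pos and 3843, 897 and 444 in CD93neg, a fold change of -1.17 with an SE of 1.06 (limma adjusted p = 0.624; -0.31 without CD93neg replicate 1). All 3 enzymes overlapped between the fractions. Men1, which tethers Kmt2a to its target genes, had 563, 620 and 572 normalized counts in CD93pos and 0, 0 and 938 in CD93neg. Its even CD93pos level met an all-or-none pattern in CD93neg, and the fold change was 5.90 (SE 2.89, limma adjusted p = 0.452). That value depended on the 2 unread libraries: it was 9.19 without CD93neg replicate 3, 0.96 with edgeR and 0.90 with DESeq2, and the group means differed by a ratio of 1.87. Kmt2e and the shared subunits Wdr5 and Ash2l overlapped.

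Dot1l and Mllt3 belong to the machinery that marks elongating genes. Dot1l, the methyltransferase, had 123, 7.92 and 205 normalized counts in CD93pos and 0, 595 and 0 in CD93neg, a fold change of 2.86 with an SE of 2.73 (limma adjusted p = 0.627; 1.32 without CD93neg replicate 1, 5.93 without CD93neg replicate 2 and -0.041 under quantile normalization). Mllt3, its partner AF9 and a regulator of HSC maintenance, had 565, 1502 and 1084 normalized counts in CD93pos and 0, 1109 and 1596 in CD93neg. In CD93neg replicates 2 and 3 the Mllt3 level was within or above the CD93pos range, so its fold change of 3.01 (SE 2.80, limma adjusted p = 0.625) rested on CD93neg replicate 1, without which it was -0.45.

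The SWI/SNF sums overlapped between the fractions in CPM only through CD93neg replicate 1, where 7 of the 12 genes were read. Against CD93neg replicates 2 and 3 the ratio of mean CPM was 1.28. The 12 genes summed to 2093, 1852 and 1733 CPM in CD93pos and 1940, 1496 and 1467 CPM in CD93neg, with ranges that overlapped here and with size factors and were wholly higher in CD93pos with TMM scaling and quantile normalization. Fold changes were positive for 9 and negative for 3, with a median of 1.95 (7 and 5 under quantile normalization, with a median of 0.29). The ATPase Smarca4 (BRG1) had 1259, 1922 and 2354 normalized counts in CD93pos and 555, 1196 and 1399 in CD93neg, with an overlap at the lower CD93pos value. Its fold change was 0.87 with an SE of 0.63 (limma adjusted p = 0.592; 0.47 without CD93neg replicate 1). The alternative ATPase Smarca2 (BRM) had 816, 987 and 692 in CD93pos and 5167, 999 and 974 in CD93neg. Its fold change was -1.06 with an SE of 0.81 (limma adjusted p = 0.606; -0.26 without CD93neg replicate 1). Smarca4 took 60.7%, 66.1% and 77.3% of the pair's reads in CD93pos and 9.71%, 54.5% and 59.0% in CD93neg, without overlap. The mean difference was 27.0 percentage points and 11.3 against CD93neg replicates 2 and 3. The interval of CD93pos replicate 1 (59.2% to 62.1%) met that of CD93neg replicate 3 (56.4% to 61.5%), so those libraries could not be told apart on counting error alone.

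The other SWI/SNF subunits form the scaffold and the targeting modules of the complex. Smarcc1 (BAF155), a scaffold, had 1859, 1040 and 895 normalized counts in CD93pos and 0, 9.51 and 974 in CD93neg. Its fold change was 5.79 (SE 2.69, limma adjusted p = 0.440; 3.57 without CD93neg replicate 1), and CD93neg replicate 3 lay inside the CD93pos range. Of the reads of Smarcc1 plus Smarcc2, Smarcc1 held 79.1%, 89.9% and 80.3% in CD93pos and 6.71% and 76.0% in CD93neg replicates 2 and 3, with 1 read in replicate 1. Smarcd2, a subunit needed for granulocyte formation, had 764, 689 and 402 in CD93pos and 0, 323 and 209 in CD93neg, without overlap; its fold change was 3.87 with an SE of 2.57 (limma adjusted p = 0.562; 1.19 without CD93neg replicate 1). Arid2, which defines the PBAF form, had 291, 294 and 205 in CD93pos and 0, 204 and 90.6 in CD93neg. The ranges nearly met, at 205 against 204, and the fold change was 3.29 with an SE of 2.43 (limma adjusted p = 0.598; 0.93 without CD93neg replicate 1). Smarcb1, a tumour suppressor and core subunit, had 912, 1128 and 668 in CD93pos and 2393, 1006 and 955 in CD93neg, a fold change of -0.58 with an SE of 0.71 (limma adjusted p = 0.678; -0.15 without CD93neg replicate 1). The subunits Smarcc2, Smarcd1, Smarce1, Arid1a, Arid1b and Pbrm1 overlapped between the fractions.

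Chd4 and the acetyltransferases complete the set. Chd4, the ATPase of the NuRD complex, had 1179, 1222 and 820 normalized counts in CD93pos and 3406, 1066 and 1213 in CD93neg, a fold change of -0.63 with an SE of 0.66 (limma adjusted p = 0.638; -0.11 without CD93neg replicate 1). Crebbp, a coactivator that acetylates histones, had 525, 1831 and 756 in CD93pos and 16367, 504 and 531 in CD93neg. The 16367 came from 9016 reads in CD93neg replicate 1, 27.8% of the reads of the 47 genes there, and the fold change of -0.86 (SE 1.35, limma adjusted p = 0.736) was 0.80 without that library. Its relative Ep300 was scarce, with 70.9, 1.58 and 62.8 in CD93pos and 3.63, 6.66 and 6.25 in CD93neg, a fold change of 1.84 with an SE of 1.68 (limma adjusted p = 0.624; -1.58 under quantile normalization). Crebbp held 88.1% to 99.9% of the pair's reads in CD93pos and 98.7% to 99.98% in CD93neg, so it was the main form of the pair in all 6 libraries. The 16 genes described by overlap alone had fold changes from -1.40 to 3.67, 10 of them positive, and limma adjusted p-values of at least 0.567.

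**Figure D4:**
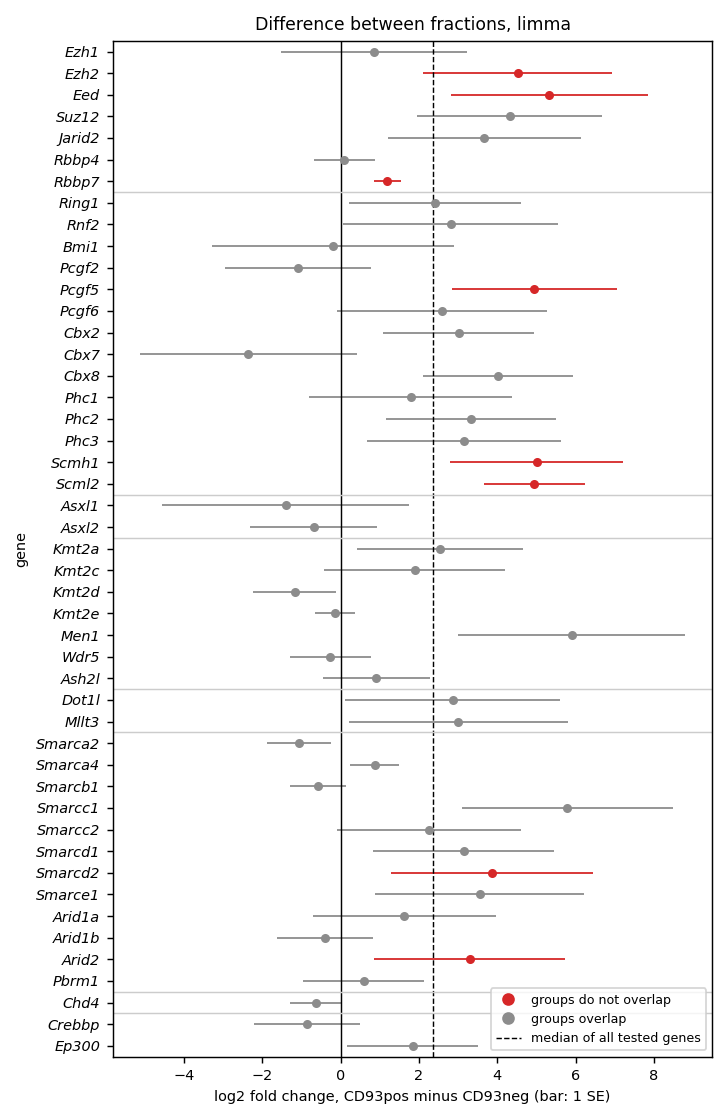
log2 fold change, CD93pos minus CD93neg, of each of the 47 genes, with 1 SE from limma; the dashed line is the median of all tested genes (2.36). Red points are the 8 genes whose fractions do not overlap; none of the 47 passed the adjusted threshold, and 11 of the 31 genes given with values changed sign in at least 1 alternative.

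Of the other genes of these pathways, none passed either: of 128 listed, 113 were tested and 0 passed, with 9 at an unadjusted limma p under 0.05 in CD93pos (11.8% of all genes) and 0 lower. Folds were positive for 88 and negative for 25, with a median of 2.03 (54 and 59 under quantile normalization, with a median of -0.14). The counts of positive folds below are therefore each followed by the count under quantile normalization. The read counts of single genes given from here on are not scaled for depth. Libraries held 5794528 to 9509304 assigned reads in CD93pos and 2832653 to 4614396 in CD93neg. Such counts can therefore be higher in CD93pos through depth alone. Groups did not overlap for 22, higher in CD93pos, and for 2, lower (Hdac1 and Hoxa10, named after their values were seen); these were 19.5% and 1.77% of the 113, against 18.3% and 1.92% of all genes. The smallest limma adjusted p was 0.0731, for the histone demethylase Kdm1b, with 216, 341 and 29 CD93pos reads and no CD93neg read; of 7 demethylases 4 folds were positive (3), and Kdm2a had 1557, 520 and 936 reads against 4, 690 and 231. Phf10, a PBAF subunit, had a CD93pos read count of 264, 59 and 86, and a CD93neg count of 0, 0 and 1 (limma adjusted p = 0.0738), and Bicral 290, 216 and 38 against 0, 0 and 3 (0.125 by limma). Of the 11 other SWI/SNF subunits tested, 8 folds were positive (8). Baz1a, a subunit of ISWI complexes, had a CD93pos read count of 398, 267 and 320, and a CD93neg count of 0, 3 and 10 (limma adjusted p = 0.146), among 20 ISWI, CHD and INO80 genes with 15 positive folds (9); Hells had 1022, 1342 and 332 reads against 165, 36 and 0. Kdm1b, Phf10, Bicral and Baz1a thus had at most 10 reads in any CD93neg library.

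Accessory subunits of the Polycomb complexes had mean sums of 345 CPM in CD93pos and 340 in CD93neg for PRC2 and of 869 and 881 for PRC1. The CD93neg means were highest in replicate 1. Replicates 1 to 3 of CD93neg gave 520, 218 and 283 CPM for PRC2 and 1146, 972 and 526 for PRC1. In CD93pos they gave 310, 376 and 350 for PRC2 and 844, 1132 and 630 for PRC1. Against CD93neg replicates 2 and 3 alone the ratios of means were 1.38 for PRC2 and 1.16 for PRC1. The genes named are those with the smallest p. Of the PRC2 accessory genes, 4 were tested and 3 had positive folds (3); Phf19 had 138, 69 and 2 CD93pos reads and no CD93neg read, and Aebp2 had 239, 324 and 159 against 1, 3 and 25. Of 17 PRC1 accessory genes 14 had positive folds (9); Yaf2 had a CD93pos read count of 837, 181 and 755, and a CD93neg count of 0, 0 and 86, and Usp7 had 924, 1180 and 672 against 1, 0 and 207. The partners of Asxl1 in removing the ubiquitin mark had 6 of 7 positive (2); the deubiquitinase Bap1 had a CD93pos read count of 1252, 384 and 756, and a CD93neg count of 0, 454 and 356, and Foxk2 226, 140 and 242 against 6, 2 and 52. Their limma adjusted p-values were all at least 0.337; of the 4 PRC2 accessory genes 2 were at an unadjusted p under 0.05 and did not overlap between the fractions.

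On the activating side, 12 of 13 MLL partners had positive folds (8); Rbbp5 had a CD93pos read count of 709, 302 and 242, and a CD93neg count of 0, 0 and 82, and Psip1, the partner that links menin to chromatin, had 2467, 1034 and 527 against 3, 107 and 166. Of 5 Dot1l and elongation partners 4 were positive (2), among them Ell (576, 291 and 539 reads against 0, 30 and 114) and Mllt10 (970, 503 and 495 against 0, 359 and 82). NuRD subunits had 7 of 10 positive (6), with Mta1 at 261, 256 and 349 reads against 0, 1 and 78 and Gatad2b at 297, 122 and 175 against 0, 2 and 67. All 8 histone acetyltransferases listed were positive (3), with Kat6b at 285, 444 and 207 reads against 0, 2 and 75 and Kat8 at 124, 71 and 96 against 1, 33 and 0. The limma adjusted p-values of these lists were at least 0.364.

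Genes that Polycomb and MLL are known to control were read in part. Of the 14 listed, 13, 9 and 12 were read in CD93pos replicates 1 to 3 and 7, 10 and 9 in CD93neg. Of the 11 tested, 7 folds were positive and 4 negative (1 and 10 under quantile normalization), and none passed. In CPM the 14 listed target genes summed to 1093, 1336 and 895 in CD93pos and to 3264, 1723 and 1254 in CD93neg. Meis1, a self-renewal factor and MLL target, had a CD93pos read count, not scaled for depth, of 6738, 4782 and 4694. Its CD93neg count was 7138, 3540 and 2635 (limma adjusted p = 0.507). Cdkn1a, a cell cycle inhibitor, had a CD93pos read count of 69, 58 and 58, and a CD93neg count of 0, 0 and 51 (limma adjusted p = 0.538). Cdkn2a, the classical target of Bmi1, had no read in any of the 6 libraries, a gene named after its values were seen.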

How the data were processed

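Polyadenylated RNA of 6 libraries was analysed, 3 CD93pos and 3 CD93neg, as their titles in the labels group them. The submitters' processing notes name the builds GRCm38 and mm10, the tools STAR and featureCounts (Subread 1.5.0-p1), and DESeq2 1.26. Neither annotation release nor strand setting is stated (not given in the sources used here), and overlapping or antisense genes may therefore share reads. The authors' deposited signal table holds normalized counts, that is, reads over a library's size factor. Their second deposited table holds mean signal, log2 fold change with its error, Wald score, p-value and adjusted p-value per gene. Whole reads came out for 100% of the nonzero values (tolerance 0.001), and assigned reads are sums of these.

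The 11805 genes averaging 10 or more normalized counts were tested. limma 3.58.1 was fitted to log2(normalized count + 1), with a trended eBayes prior, two-sided p-values and Benjamini-Hochberg adjustment at 0.05. On this scale the change of low genes can be understated, and genes with unread libraries can have large folds. Count tests on the recovered reads (edgeR 4.0.16, DESeq2 1.42.0, under R 4.3.3) served as alternatives. Lower bounds of folds use 3 reads over the unread group. Intervals of shares are exact (Clopper-Pearson) at 95%; intervals and floors hold counting error only, because amplified reads are not independent molecules. GENCODE M21 on GRCm38 gave gene positions and exon lengths. Remaining steps ran in Python 3.11.15 with pandas 2.3.3, numpy 2.4.6 and matplotlib 3.10.9.

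The 47 genes, the lists and the tests were chosen with earlier results of these data known. Values per library are given for catalytic or defining subunits, the 6 genes with the smallest unadjusted p in each direction, genes whose groups do not overlap and genes unread in 2 or more libraries of a group; other genes are given by range and count. Of each related list the 2 genes with the smallest p are named. limma was also run on simulated data with 200 genes changed by a log2 fold of 3: it found 99.5% of them, with 5 false calls, where the coefficient of variation was 0.3, and 0% where it was 1.64, the common value edgeR estimated here. Other pseudocounts, filters, scalings and tests, the replicate block and leaving out single libraries were tried; DESeq2 with each library left out was added after seeing the data.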

Additional observations from a re-analysis of the deposited data

How the results depend on the processing

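The count of the 47 genes past the threshold was 0 with limma and remained 0 under both other pseudocounts, both other filters, TMM scaling, quantile normalization, library quality weights and edgeR; it was 1 with DESeq2 and 0 to 8 with limma and 1 library left out. DESeq2 with 1 library left out called 0 without each CD93pos library and 4, 2 and 9 without CD93neg replicates 1 to 3. Over all genes, limma called 206 with a pseudocount of 0.5, 279 with TMM scaling and 0 to 1880 with 1 library left out. The 1880 were called without CD93neg replicate 3, and 774 without CD93pos replicate 2. With all 6 libraries DESeq2 called 705. DESeq2 with 1 library left out called 310, 245 and 220 without CD93pos replicates 1 to 3, and 1339, 1094 and 2446 without CD93neg replicates 1 to 3. With the replicate block limma called 24 genes and 0 of the 47. Samples with the same number deviated together only weakly (r of 0.037, 0.019 and 0.061), each library correlated best with its own number, and the numbers were not taken as pairs. Genes of the 47 without overlap and higher numbered 8, 11 with TMM scaling (20.8% of all genes), 6 under quantile normalization (9.94%) and 10 to 15 with 1 library left out (20.4% to 34.8%). Those lower numbered 0, also with TMM scaling, 3 under quantile normalization (12.4%) and 0 to 4 with 1 library left out (2.37% to 13.8%). Of 31 genes given with values, 20 kept their sign in every alternative. Fold changes that turned under quantile normalization were those of Ezh1 (-1.87), Ring1 (-0.44), Cbx2 (-0.80), Phc2 (-0.21), Phc3 (-0.24), Kmt2c (-0.58), Dot1l (-0.041) and Ep300 (-1.58). With library quality weights they were Ezh1 (-0.87), Bmi1 (1.76), Kmt2c (-0.36), Mllt3 (-0.43) and Crebbp (0.13). With edgeR and DESeq2 in turn they were Ezh1 (-0.94 and -1.05), Phc3 (-1.09 and -1.15) and Dot1l (-0.67 and -0.83). Bmi1 gave 0.12 with a pseudocount of 0.5 and 0.10 with TMM scaling. With 1 library left out the ranges were -1.26 to 2.50 for Ezh1, -3.52 to 2.14 for Bmi1, -0.35 to 3.41 for Kmt2c, -0.45 to 4.87 for Mllt3 and -1.71 to 0.80 for Crebbp. The cause of these turns was not tested. The median fold of all genes was 2.36, and 0.02 with quantile normalization, 0.71 with quality weights, 0.44 with edgeR and 0.36 with DESeq2. Depth limits each CD93neg library, at 2832653 to 4614396 reads, in showing low genes.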
